A study of Mus musculus with 60 samples.

Results

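Cancer-associated fibroblasts (CAFs) that shared a Boyden chamber with 393P carcinoma cells were compared with the same fibroblasts kept alone in such chambers. The comparison was taken by its labels: all libraries of CAFs labelled as co-cultured with 393P in the Boyden chamber, and all of CAFs alone in that format. These are 30 of the 60 libraries of the series. They come as 3 technical libraries for each of 5 biological replicates a group, and the 3 were summed before any test, giving 5 sums against 5. Every gene of the count table entered, 48440 in all, and 14040 passed the filter on low counts.

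All samples were mouse CAFs, called tCAFs in the labels, which state that CAFs were enriched by cell sorting before lysis. Groups used here are CAFs alone, CAFs with 393P and CAFs with 344SQ in the Boyden chamber (5 biological replicates each), and CAFs alone and CAFs with 393P grown as multicellular aggregates (3 each). The titles of the aggregates of CAFs alone carry the name CAF-GFP, which the titles of the other groups used here do not. No treatment, dose or culture time is given in the labels. Both carcinoma lines were derived from lung tumours of mice. As background, 393P is an epithelial line that rarely metastasises and 344SQ is a metastatic one. Each co-culture group rests on 1 carcinoma line, and no label ties replicates to separate animals or fibroblast isolates, so that p-values measure the spread between these samples only.

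A Boyden chamber holds 2 cell populations on the 2 sides of a porous membrane, so that secreted factors pass while the cells stay apart. CAFs make and remodel the collagen-rich matrix of carcinomas, contract it through a smooth-muscle type actin cytoskeleton, and secrete growth factors and cytokines. Carcinoma cells are known to change these programmes both by soluble factors such as growth factors, interleukin-1 and TGF-beta, and by direct contact.

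The sums held 6734110 to 8542262 counts for CAFs alone, 6227570 to 7126107 with 393P and 4182944 to 5857925 with 344SQ. Fibroblast identity was checked with 15 fibroblast markers, whose summed level was 11371 to 11873 CPM (counts scaled to a library of 1e+06) in CAFs alone and 9905 to 10591 CPM with 393P. Col1a2, Fbln2 and Vim held most of that sum (153565, 99102 and 81493 counts in CAFs alone). Fap had 68 counts in CAFs alone and 88 with 393P, and Lum 28 and 7. Of the fibroblast markers 12 were tested, 5 fell and 2 rose. The 14 leukocyte markers summed to 19.9 to 22.6 CPM in CAFs alone and 13.5 to 20.9 CPM with 393P. Of these, 3 were tested and Csf1r, the receptor of a macrophage growth factor, fell (-0.71 ± 0.18, adjusted p = 0.00869); Cd68 had 392 and 343 counts and Ptprc 7 and 8, while Cd3e, Adgre1, Tyrobp and S100a9 had none in either group. The part of these markers in the results was not tested. Of 11 endothelial markers, Tie1, Emcn, Cldn5 and Erg had no count in either group. Epcam, a defining epithelial gene, had 1 count in CAFs alone and 2 with 393P. The 20 epithelial markers summed to 25.9 to 39.9 CPM in CAFs alone and 18.9 to 89.4 CPM with 393P, and the highest sample, 393P replicate 1, held 1 technical library at 141 CPM against 13.1 to 74.8 CPM in the other libraries of its group. Of these markers 6 were tested, none rose and 1, Esrp2 (-0.48), fell, a call lost without any 1 of 5 replicates (CAFs alone 4 or 5, 393P 2, 3 or 4), while without a count filter 4 of the 20 rose. Cdh1, which encodes E-cadherin, ranged from 1.79 to 4.37 CPM in CAFs alone and from 0.609 to 16.5 CPM with 393P (1.12 ± 0.54 on the log2 scale, adjusted p = 0.168), and was at -0.41 without the 2 technical libraries richest in these markers. Without the single richest library, 1144 genes were higher and 1165 lower, close to the counts with it given below. Without the 2 richest, an alternative added after seeing the data, more were called, 1441 higher and 1542 lower.

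**Figure D1:**
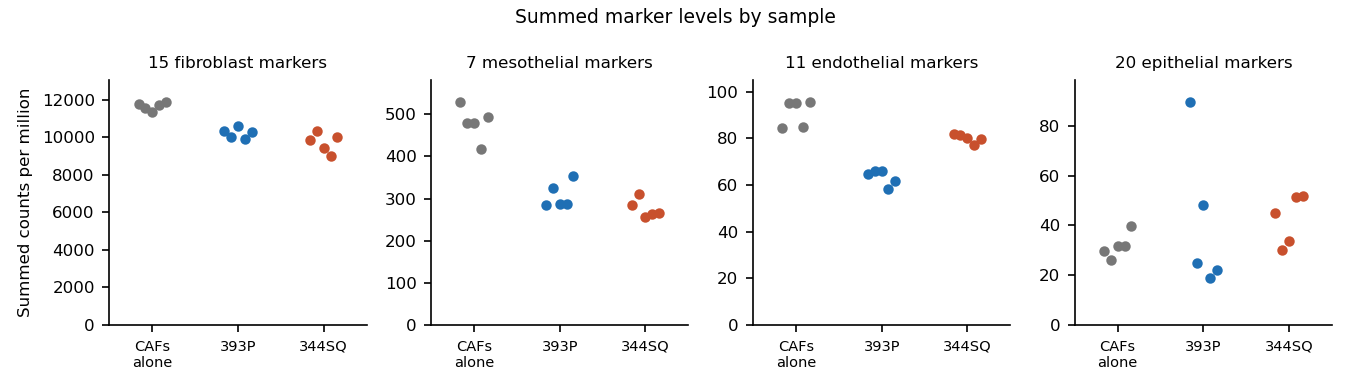
Summed level of 4 marker lists in each of 5 biological replicates a group (points), in CPM on linear axes from 0. The mesothelial sum lies between 285 and 353 with 393P and between 418 and 528 in CAFs alone, and 1 sample with 393P stands at 89.4 for the epithelial markers.

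Transcripts of mesothelial markers were present in both groups and their sum was lower with 393P. Of 7 markers, 6 passed the count filter, 3 fell and none rose, with summed levels of 418 to 528 CPM in CAFs alone and 285 to 353 CPM with 393P. Upk1b, a uroplakin of mesothelial cells, went from 175 ± 14.3 to 96.1 ± 11.5 CPM (mean ± SD, n = 5; log2 change -0.87 ± 0.08 (SE), adjusted p = 1.11e-07). Upk3b changed by -0.66 ± 0.12 and Lrrn4 by -0.56 ± 0.10 on the log2 scale. Wt1 and Msln did not pass the test, and Calb2 had no count. Their part in the other results was not tested. In these bulk samples, fewer cells of a type and less RNA per cell cannot be told apart.

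With 393P across the membrane, 1078 genes (7.68% of those tested) were higher and 1117 (7.96%) lower than in CAFs alone, at an adjusted p under 0.05. Most differences were small: the median size among the 2195 called genes was 0.37 on the log2 scale, 1782 of them changed by less than 1.5-fold, and 40 higher and 44 lower genes reached a log2 change of 1. With the first technical library of each replicate alone, 336 were higher and 273 lower. For 1466 of the called genes, the 5 values of one group did not overlap the 5 of the other, as for 1737 (12.4%) of all genes tested. Genes named for the largest rises or falls were picked among those without overlap, so for them the separation follows from that choice. The median log2 change over all genes tested was 0.000645. Gene lists below are read against those shares and that median, and members that did not pass the count filter are not part of their counts. Of the genes named below, Pdgfra, Ccnd1, Bnip3, Plxna4, Tnc, Vcl, Crim1, Nid2, Ndrg1, Ddit3, Sfrp2, Mt2, Tgfb3, Ahr, Vcam1 and Col4a1 share exonic bases with a gene on the other strand, from which their reads cannot be told apart without a known strand setting.

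Spp1, Esm1 and Apln, which encode secreted proteins, were among the genes with the largest rises. Spp1 (ENSMUSG00000029304.14, chr5:104435118-104441050, GRCm38), the gene of the secreted integrin ligand osteopontin, had the smallest p among the rises. Its levels in the 5 replicates of CAFs alone were 15.9, 22.1, 19.1, 21.03 and 23.7 CPM, and those with 393P were 106, 89.4, 89.8, 91.7 and 105 CPM. Each 393P value was far above the highest value of CAFs alone, and the log2 change was 2.24 ± 0.09 (SE; adjusted p = 1.79e-14). Esm1 (ENSMUSG00000042379.8, chr13:113209659-113218098), which encodes the secreted proteoglycan endocan, had the largest fold change from a low base. It stood at 0.894, 1.23, 0.827, 0.501 and 0.873 CPM in CAFs alone and at 4.19, 5.44, 5.85, 5.02 and 6.52 CPM with 393P, a log2 change of 2.62 ± 0.23 (adjusted p = 2.19e-08). Apln, the gene of the peptide hormone apelin, went from 2.92 ± 0.913 to 10.003 ± 2.33 CPM (1.78 ± 0.20 on the log2 scale, adjusted p = 8.38e-07).

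Hmga2 (ENSMUSG00000056758.14, chr10:120361275-120476469) encodes a chromatin protein of embryonic and mesenchymal cells. It was at 235, 234, 233, 223 and 208 CPM in CAFs alone. With 393P it was at 496, 487, 441, 441 and 461 CPM, so that the groups lay well apart (log2 change 1.04 ± 0.06, adjusted p = 1.32e-11). A short antisense transcript, 1700006J14Rik, overlaps Hmga2 by 140 exonic bases and itself changed by 1.42 ± 0.13, and their reads cannot be told apart. Pdgfra (ENSMUSG00000029231.15, chr5:75152292-75198215), a receptor for platelet-derived growth factors and a fibroblast marker, was at 134, 131, 127, 123 and 138 CPM in CAFs alone. It was at 207, 228, 221, 216 and 229.9 CPM with 393P (0.75 ± 0.05, adjusted p = 8.37e-10), with no overlap. Rarb, a retinoic acid receptor, went from 2.89 ± 0.395 to 6.67 ± 0.763 CPM (1.19 ± 0.18). It overlaps Top2b on the other strand, which leaves its level uncertain. Medag, a gene linked to fat cell differentiation, went from 28.5 ± 3.36 to 60.5 ± 2.52 CPM (1.08 ± 0.08, adjusted p = 8.37e-10).

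**Figure D2:**
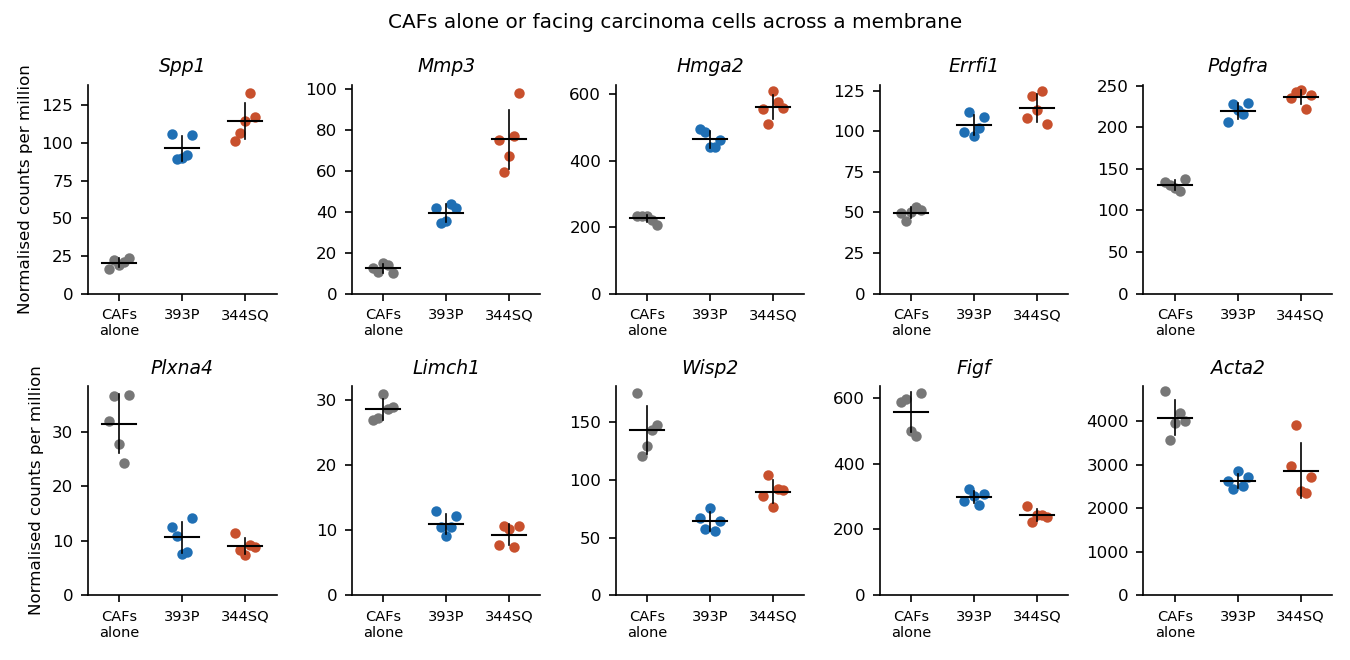
Normalised CPM of 10 genes in each of 5 biological replicates (points) of CAFs alone, CAFs with 393P and CAFs with 344SQ across the membrane; horizontal bars are means, vertical bars SD, and each axis is linear from 0. In the upper row the 393P points lie above all points of CAFs alone, and in the lower row below them, with Spp1 at 89.4 to 106 against 15.9 to 23.7. Genes named for the size of their change were picked among those without overlap.

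Among 21 matrix metalloproteinase and TIMP genes, 14 passed the count filter, 3 rose and 4 fell, and each direction is given by name below. Mmp3 (ENSMUSG00000043613.7, chr9:7445822-7455975), the gene of stromelysin-1, which cleaves proteoglycans and activates other proteases, was at 12.4, 10.4, 15.004, 14.1 and 9.98 CPM in CAFs alone. Its values with 393P were 41.7, 34.5, 35.2, 43.97 and 41.9 CPM, all well above the highest of CAFs alone (log2 change 1.67 ± 0.13, adjusted p = 2.63e-09). Mmp13 (ENSMUSG00000050578.9, chr9:7272514-7283331), the main mouse interstitial collagenase gene, went from 4.49 ± 0.757 to 10.7 ± 1.83 CPM (1.25 ± 0.14, adjusted p = 1.19e-06). Mmp10, the gene of stromelysin-2, was the third member that rose (1.59 ± 0.30). The members that fell were Mmp17 (-0.72), Timp3 (-0.58), Timp2 (-0.37) and Mmp14 (-0.28). Mmp14 lost its call in 3 of 21 alternatives, 1 of them without technical library 2 of 393P replicate 1. Timp3 encodes a matrix-bound inhibitor of these proteases and was at 3827 ± 124 CPM in CAFs alone and 2563 ± 180.1 CPM with 393P. It shares 1733 exonic bases with Syn3 on the other strand.

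Mmp3 and Mmp13 lie in the same protease gene cluster on chromosome 9 and both rose, and their promoters are shown because each holds 1 AP-1 motif close to the start. The lines give 220 bases before the transcription start and 25 from it on, 5′ to 3′ on the gene's strand, from RefSeq on GRCm38.p6, with the motif TGANTCA in capitals. The Mmp3 line spans chr9:7445602-7445846 on the plus strand, with the motif beginning 46 bases before the start. The Mmp13 line spans chr9:7272294-7272538 on the plus strand, with the motif beginning 35 bases before the start.
Mmp3: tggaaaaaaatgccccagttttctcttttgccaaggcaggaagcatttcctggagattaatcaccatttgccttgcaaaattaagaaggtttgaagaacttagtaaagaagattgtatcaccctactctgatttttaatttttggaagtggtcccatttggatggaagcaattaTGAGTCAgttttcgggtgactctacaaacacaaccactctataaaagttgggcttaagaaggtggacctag
Mmp13: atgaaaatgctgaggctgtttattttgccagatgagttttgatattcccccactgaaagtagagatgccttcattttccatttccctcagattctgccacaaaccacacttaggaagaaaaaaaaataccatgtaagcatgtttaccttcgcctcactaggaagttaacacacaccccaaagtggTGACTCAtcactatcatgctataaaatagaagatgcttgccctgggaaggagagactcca
On either strand, 7.81% of the 32851 promoters of 300 bases in that table hold this motif. A match describes the letters only.

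Genes of cell division rose together. Of 40 cell cycle genes, of which each passed the count filter, 25 were higher with 393P, none was lower, and the median log2 change was 0.30. Bub1b, a spindle checkpoint kinase, went from 19.5 ± 2.24 to 29.6 ± 2.35 CPM (0.61 ± 0.09, adjusted p = 3.26e-05). Cenpa, the histone variant of centromeres, was at 54.3, 50.02, 48.9, 46.95 and 43.7 CPM in CAFs alone and at 74.6, 61.1, 72.2, 82.6 and 74.9 CPM with 393P, without overlap (0.59 ± 0.08, adjusted p = 1.01e-05). Mcm6, a subunit of the replicative helicase, changed by 0.48 ± 0.06. Cdk1, the kinase that drives entry into mitosis, changed by 0.36 ± 0.08 (adjusted p = 0.00306). Outside that list, Ccnd1, the gene of the G1 cyclin D1, went from 392, 373, 355, 351 and 381 CPM in CAFs alone to 632, 674, 622, 593 and 655 CPM with 393P. Its lowest 393P value was well above the highest value of CAFs alone (0.78 ± 0.06, adjusted p = 8.37e-10).

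Promoters of Cdk1 and Cenpa are shown because they carry both letter groups known from late cell cycle genes, the CHR (TTTGAA) and CCAAT, here as its reverse complement ATTGG. Capitals mark both. The Cdk1 line spans chr10:69352888-69353132 on the minus strand and the Cenpa line chr5:30666666-30666910 on the plus strand, with the same window, source and build as above.
Cdk1: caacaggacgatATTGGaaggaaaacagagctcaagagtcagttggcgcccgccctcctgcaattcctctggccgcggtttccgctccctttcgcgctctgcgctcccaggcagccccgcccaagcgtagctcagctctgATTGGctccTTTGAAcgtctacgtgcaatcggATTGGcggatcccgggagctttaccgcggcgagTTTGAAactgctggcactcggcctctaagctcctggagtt
Cenpa: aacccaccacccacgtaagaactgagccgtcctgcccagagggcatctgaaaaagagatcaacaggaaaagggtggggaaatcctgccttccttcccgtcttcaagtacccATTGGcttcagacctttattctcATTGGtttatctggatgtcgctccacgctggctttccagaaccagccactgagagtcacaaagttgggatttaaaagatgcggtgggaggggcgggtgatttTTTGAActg
Of the 25 cell cycle genes that rose, 21 were in the promoter table, 11 of these (52.4%) held the CHR on either strand, and 18 (85.7%) held CCAAT. Over all 32851 promoters the shares were 17.9% and 37.4%, counted per promoter, while the list shares are counted per gene. Those promoters belong to 27025 gene symbols, so some genes have several. The list shares and the background shares are therefore in different units, and their gap is not an exact measure. Cell cycle genes of the list that did not rise were not counted. Whether the shares of the genes that rose belong to the list as a whole or to the rise was therefore not tested.

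Of 50 tested cytosolic ribosomal protein genes, 20 rose, none fell, 38 had a log2 change above 0 and the median was 0.17. Without a count filter 2 fell, without the 2 technical libraries richest in epithelial markers 3 fell, and without CAFs alone replicate 2 the number was 1. Rps20 went from 679.8, 700.0, 659, 669 and 629.5 CPM in CAFs alone to 806, 839, 869, 978 and 1038 CPM with 393P (0.44 ± 0.09, adjusted p = 0.00113). Rpl3 changed by 0.43 ± 0.09 and Rpl7 by 0.36 ± 0.07. Replicates 4 and 5 held the highest 393P values of all 3 genes, and without either of them 13 members rose. With the first technical library alone, 1 member rose and the log2 change of Rps20 was 0.10. Many ribosomal protein genes have processed pseudogenes of near-identical sequence, with which reads can be shared.

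Lipid synthesis genes rose in part. Of 31 genes of cholesterol and fatty acid synthesis, 12 rose and 1, Fads2 (-0.37), fell, with a median log2 change of 0.18. Scd1, a desaturase that makes monounsaturated fatty acids, was at 394, 386, 369.7, 368 and 388 CPM in CAFs alone and at 529, 519.8, 577, 523 and 601 CPM with 393P. The groups did not overlap, and the log2 change was 0.53 ± 0.06 (adjusted p = 5.24e-07). Its paralogue Scd2 changed by 0.43 ± 0.06 and the elongase gene Elovl6 by 0.44 ± 0.07. Without 393P replicate 5, 7 members rose.

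Hypoxia and glycolysis genes mostly rose where they changed. Of 33 tested, 11 rose, 1 fell and the median log2 change was 0.18. Bnip3, which encodes a mitophagy receptor induced by low oxygen, was at 6.86, 9.87, 7.797, 8.26 and 8.24 CPM in CAFs alone. It reached 21.5, 16.3, 15.02, 16.7 and 18.98 CPM with 393P, a log2 change of 1.11 ± 0.13 (adjusted p = 1.56e-06). Pdk1, a kinase that diverts pyruvate from mitochondria, changed by 0.75 ± 0.09 (adjusted p = 5.34e-06). The exception, Ndrg1, went from 71.9 ± 5.502 to 45.9 ± 5.63 CPM (-0.65 ± 0.08, adjusted p = 5.6e-06). Without replicate 5 of CAFs alone, 7 members rose. The Bnip3 promoter is shown for its hypoxia response element letters ACGTG, which on the 2 strands overlap as the palindrome CACGTG (capitals), also the letters of an E-box, 108 bases before the start. Its line spans chr7:138909482-138909726 on the minus strand, from the same source.
Bnip3: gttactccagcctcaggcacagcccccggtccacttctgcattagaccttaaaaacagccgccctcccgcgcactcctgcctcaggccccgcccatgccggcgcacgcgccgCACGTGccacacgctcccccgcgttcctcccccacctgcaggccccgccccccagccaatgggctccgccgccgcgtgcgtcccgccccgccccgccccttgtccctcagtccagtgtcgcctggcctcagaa
Of the 11 genes that rose, 10 were in the table. Against 19.6% of all promoters, a share per promoter, 6 of these genes (60%, a share per gene) held ACGTG on either strand. Hypoxia and glycolysis genes that did not rise were not counted. Whether this share belongs to the list as a whole or to the rise was therefore not tested.

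Genes of immediate early and growth factor feedback changed in both directions. Among 30 immediate early and MAPK feedback genes tested, 7 rose and 7 fell. Errfi1, a feedback inhibitor of the EGF receptor, was at 49.3, 44.4, 50.4, 53.1 and 51.5 CPM in CAFs alone and 99.7, 112, 97.1, 102 and 109 CPM with 393P, far apart (1.06 ± 0.07, adjusted p = 1.1e-10); it belongs to the list of glucocorticoid-responsive genes, of which 4 of 9 rose and 2 fell (1 fell without CAFs alone replicate 4 or 393P replicate 1). Etv4, an ETS factor downstream of ERK, changed by 0.78 ± 0.13 and Dusp6, the ERK phosphatase, by 0.59 ± 0.07. Spry2, an inhibitor of receptor tyrosine kinase signalling, changed by 0.54 ± 0.07 (adjusted p = 1.85e-05). Members that fell included Nr4a1 (-0.61), Jun (-0.37) and Fos (-0.35), which are named after their values were seen. The values of Jun and of Fos overlapped between groups, and Nr4a1 and Fos lost their calls without CAFs alone replicate 4 or 393P replicate 4 or 5. Of the 7 that rose, 5 were in the promoter table and none held TGANTCA in its 300 bases. Sgk1, a kinase of the glucocorticoid list, went from 112 ± 8.22 to 166 ± 13.7 CPM (0.56 ± 0.07).

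Contractile genes fell. Of 19 genes of the contractile and myofibroblast list, 16 were tested, 11 fell, none rose and the median log2 change was -0.34. Acta2 (ENSMUSG00000035783.8, chr19:34241090-34255590), smooth muscle alpha-actin and the usual myofibroblast marker, was at 4692, 3571, 3969.6, 4187 and 4011 CPM in CAFs alone. With 393P it was at 2634, 2452, 2849, 2504 and 2721 CPM, each value below the lowest of CAFs alone (-0.63 ± 0.10, adjusted p = 0.000113). Lmod1, an actin filament nucleator of smooth muscle, changed by -0.74 ± 0.11 and Myh10, a non-muscle myosin heavy chain, by -0.49 ± 0.07. Limch1 (ENSMUSG00000037736.18, chr5:66745827-67057158), an activator of non-muscle myosin outside the list, was at 26.98, 27.3, 30.95, 28.5 and 28.9 CPM in CAFs alone and 12.8, 10.4, 9.01, 10.5 and 12.2 CPM with 393P. Each 393P value was below the lowest of CAFs alone (-1.37 ± 0.11, adjusted p = 2.89e-09).

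A further pair of contractile genes, chosen after their values were seen, is given because their promoters hold a CArG box, the site of serum response factor. Myl9, the regulatory light chain of smooth muscle myosin, went from 102 ± 13.5 to 72.99 ± 11.9 CPM (-0.49 ± 0.10, adjusted p = 0.00198), with overlapping groups. Cnn2, the actin-binding protein calponin 2, went from 505 ± 38.1 to 419 ± 33.5 CPM (-0.27 ± 0.07, adjusted p = 0.0106). Both lines are on the plus strand, chr2:156775244-156775488 for Myl9 and chr10:79988380-79988624 for Cnn2, with the box in capitals, beginning 161 and 56 bases before the start.
Myl9: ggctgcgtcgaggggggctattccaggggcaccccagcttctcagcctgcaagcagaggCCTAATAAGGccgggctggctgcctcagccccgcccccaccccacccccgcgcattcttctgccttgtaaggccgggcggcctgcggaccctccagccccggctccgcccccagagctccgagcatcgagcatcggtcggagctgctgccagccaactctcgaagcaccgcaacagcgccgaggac
Cnn2: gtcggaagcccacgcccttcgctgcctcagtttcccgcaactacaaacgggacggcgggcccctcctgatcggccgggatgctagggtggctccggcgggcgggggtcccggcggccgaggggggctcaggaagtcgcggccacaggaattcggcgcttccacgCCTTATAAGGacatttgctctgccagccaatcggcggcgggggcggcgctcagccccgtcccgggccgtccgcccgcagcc
Of the 11 contractile genes that fell, 10 were in the table. Against 1.63% of all promoters, a share per promoter, 3 of these genes (30%, a share per gene) held a CArG box on either strand. Contractile genes that did not fall were not counted. Whether this share belongs to the list as a whole or to the fall was therefore not tested.

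Targets of SRF and YAP moved the same way. Of 18 tested, 9 fell, none rose and the median log2 change was -0.23. Vcl, the focal adhesion protein vinculin and a member of both lists, went from 337, 376, 365, 359 and 344 CPM in CAFs alone to 272, 267, 272, 269 and 260.2 CPM with 393P (-0.41 ± 0.05, adjusted p = 9.78e-06). The 2 groups were each narrow and did not overlap. Cyr61 (CCN1), a matricellular YAP target, changed by -0.38 ± 0.05 (adjusted p = 2.11e-05) and Crim1 by -0.36 ± 0.06. Ctgf (-0.40 ± 0.14, adjusted p = 0.0502) and Ankrd1 (0.10 ± 0.06), which are other YAP targets, did not pass the test. Ctgf passed as lower in 7 of 21 alternatives, Ankrd1 in none. Of the 9 that fell, 7 were in the promoter table. The TEAD motif, GGAATG, was held on either strand by 14.7% of all promoters, a share per promoter. Of these genes, 5 (71.4%, a share per gene) held it. Targets on the list that did not fall were not counted. Whether this share belongs to the list as a whole or to the fall was therefore not tested.

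**Figure D3:**
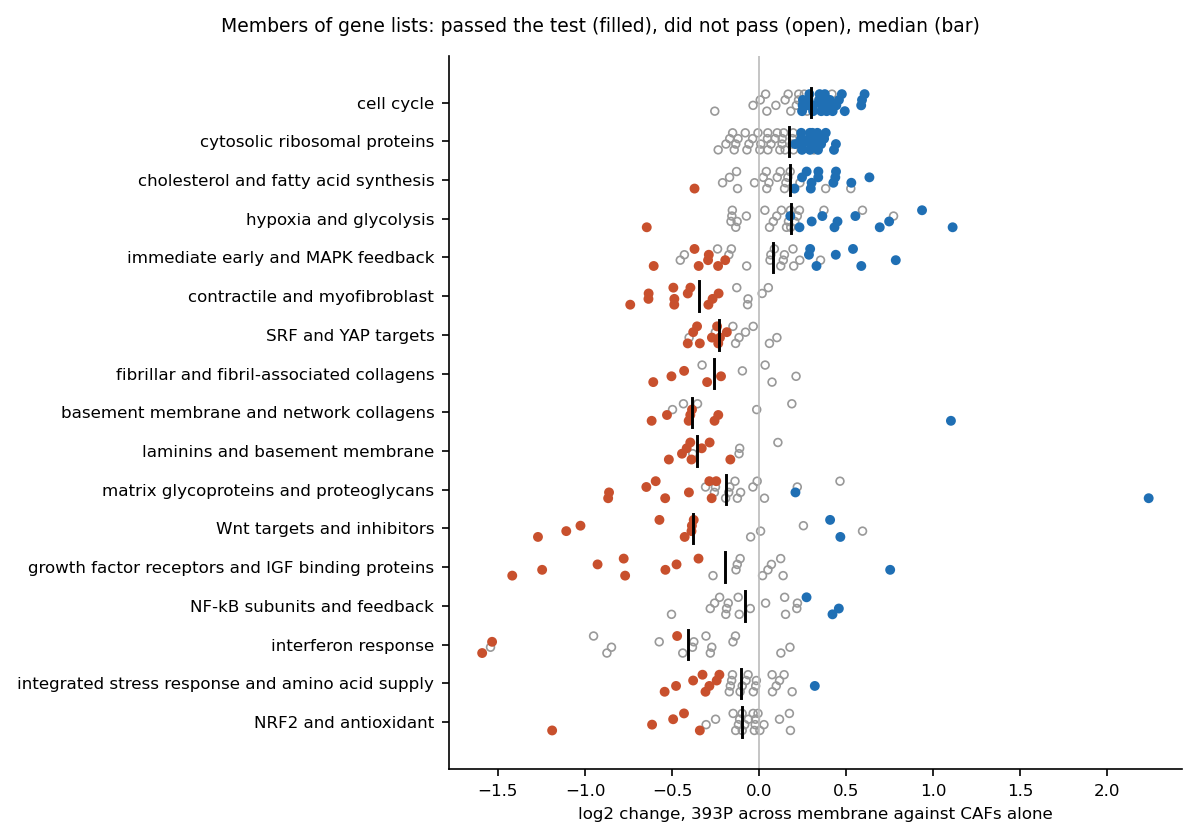
Log2 change with 393P across the membrane against CAFs alone for each tested member of 17 gene lists (points; blue, passed the test and higher; red, passed and lower; open, did not pass), with the median of each list as a black bar. Of the points, 25 of 40 are blue in the cell cycle row and 20 of 50 in the ribosomal row, and 11 of 16 are red in the contractile row.

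Matrix genes were mostly lower. Of 10 tested fibrillar and fibril-associated collagen genes 5 fell and none rose (median -0.26), and of 13 tested basement membrane and network collagen genes 7 fell and 1 rose (median -0.39). Col1a1, a chain of collagen I, was at 1095, 969.5, 1024, 1004 and 1036 CPM in CAFs alone and 793, 745, 752, 755 and 760.2 CPM with 393P, without overlap (-0.43 ± 0.06, adjusted p = 1.85e-05). Col3a1, the collagen III chain, went from 1002, 1157, 1006, 994 and 1196 to 718, 686, 689, 679 and 741 CPM, again without overlap (-0.61 ± 0.07, adjusted p = 1.97e-06). Col12a1, a fibril-associated collagen, changed by -0.50 ± 0.07. The collagen VI chains Col6a1 and Col6a2 changed by -0.53 ± 0.07 and -0.62 ± 0.09, and the collagen IV chain Col4a1 by -0.40 ± 0.06 (adjusted p = 2.91e-05). Col15a1 was the single collagen of these lists that rose, from 1.901 ± 0.6704 to 4.16 ± 0.678 CPM (1.1 ± 0.23, adjusted p = 0.00207).

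Of 12 laminin and basement membrane genes tested, 8 fell, none rose and the median was -0.36. Nid2, a nidogen that links laminin to collagen IV, changed by -0.52 ± 0.09, and the laminin chain gene Lama5 by -0.39 ± 0.07. Sparc, a collagen-binding matricellular protein, went from 4154 ± 163 to 3158 ± 161 CPM (-0.40 ± 0.06, adjusted p = 4.82e-05). Without replicate 4 of CAFs alone, 5 members fell. Of 30 matrix glycoproteins and proteoglycans, 25 were tested, 9 fell and 2 (Spp1 and Vcan) rose. Tnc (ENSMUSG00000028364.15, chr4:63959785-64047015), which encodes tenascin C, was at 176, 173, 176, 197 and 182 CPM in CAFs alone. With 393P it was at 102, 102, 116, 85.8 and 88.95 CPM, with no overlap (-0.87 ± 0.09, adjusted p = 2.82e-07). Fmod, a small leucine-rich proteoglycan that binds collagen, changed by -0.59 ± 0.08. Of 20 collagen processing genes 6 fell and 1, the procollagen N-protease gene Adamts14 (0.75), rose. Of 11 tested hyaluronan genes 3 rose and 1 fell: Ugdh, which makes the sugar precursor, changed by 0.41 ± 0.06 and the receptor gene Cd44 by 0.27 ± 0.06, while Cemip, which takes part in hyaluronan breakdown, changed by -0.46 ± 0.06 (adjusted p = 5.6e-06).

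Plxna4 (ENSMUSG00000029765.12, chr6:32144268-32588192), a receptor for semaphorins, was among the genes with the largest falls. It was at 32.05, 36.6, 27.9, 24.3 and 36.8 CPM in CAFs alone and 12.6, 10.9, 7.59, 7.91 and 14.2 CPM with 393P (-1.56 ± 0.15, adjusted p = 7.6e-08). Each 393P value was below the lowest of CAFs alone. Among the semaphorin ligands, Sema5a changed by 0.82 ± 0.07 (adjusted p = 4.59e-09) and Sema3a by 0.47 ± 0.07. Of 22 tested axon guidance genes 3 rose and 5 fell.

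Genes of 4 insulin-like growth factor binding proteins (Igfbp2, Igfbp3, Igfbp4 and Igfbp5) fell. Igfbp2 (ENSMUSG00000039323.18, chr1:72824503-72852474) was at 15.7, 14.1, 13.8, 14.9 and 15.3 CPM in CAFs alone and at 5.72, 6.08, 5.22, 5.48 and 5.07 CPM with 393P, with both groups narrow (-1.42 ± 0.14, adjusted p = 1.47e-07). Igfbp4 went from 452 ± 35.1 to 311 ± 19.7 CPM (-0.54 ± 0.07). In the list of growth factor receptors and these binding proteins, 8 of 18 tested genes fell and 1, Pdgfra, rose. The vascular growth factor receptors Kdr (-0.77 ± 0.14) and Flt1 (-0.47 ± 0.07) were among those that fell. The summed level of 11 endothelial markers was 84.5 to 95.4 CPM in CAFs alone and 58.4 to 66.1 CPM with 393P. That sum consists mostly of these 2 genes: Flt1 had 2891 and 1794 counts and Kdr 557 and 281 in the 2 groups. Pecam1 had 27 and 23, Tek 27 and 13, and the other members fewer. The sum is therefore no separate measure of endothelial cells, and the part of such cells in these 2 results was not tested. Figf, which encodes the vascular growth factor VEGF-D, was at 587, 598, 499.5, 483 and 614 CPM in CAFs alone and 285, 323, 300.5, 276 and 309 CPM with 393P, far apart (-0.90 ± 0.07, adjusted p = 2.89e-09). Of 30 growth factor genes, 21 were tested, 4 rose (Ereg, Fgf2, Fgf7, Hbegf) and 5 fell, among them Fgf18, Figf, Nrg1 and Igf1.

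Wisp2 and Nov, which encode matricellular proteins of the CCN family, also fell. Wisp2 (CCN5; ENSMUSG00000027656.7, chr2:163820861-163833146) was at 176, 121, 129, 144 and 148 CPM in CAFs alone and 66.6, 57.2, 75.6, 55.99 and 64.6 CPM with 393P (-1.16 ± 0.10, adjusted p = 4.59e-09). Nov (CCN3; ENSMUSG00000037362.8, chr15:54745702-54754039) was at 101, 93.6, 92.7, 99.04 and 116 CPM and 44.96, 40.9, 42.7, 31.8 and 53.6 CPM in these groups (-1.23 ± 0.10, adjusted p = 3.23e-09). Neither gene overlapped between groups. Of 26 Wnt targets and inhibitors 14 were tested, 8 fell, 2 (Dkk3 and Wnt5a) rose and the median was -0.38. Nkd1, a feedback inhibitor of Wnt signalling, went from 23.6 ± 1.999 to 10.9 ± 1.68 CPM (-1.11 ± 0.11, adjusted p = 1.07e-07), and Sfrp2, a secreted Wnt antagonist, changed by -1.27 ± 0.28. The Notch target Hey2 changed by -0.94 ± 0.18 (adjusted p = 0.000621), and of 8 tested Notch pathway genes 2, Hey2 and the ligand gene Jag1, fell.

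Serpinb9, Serpinb9b and Serpinb1a fell. Serpinb9, an inhibitor of granzyme B, went from 152, 157, 152, 148 and 163 CPM in CAFs alone to 87.7, 89.7, 84.4, 88.8 and 98.7 CPM with 393P, without overlap (-0.78 ± 0.06, adjusted p = 2.5e-09). Its neighbour Serpinb9b changed by -0.86 ± 0.07, and the 2 are close paralogues that can share reads. Serpinb1a, an inhibitor of neutrophil elastase, changed by -1.19 ± 0.14. Vnn1, a pantetheinase, changed by -1.25 ± 0.17.

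Acute phase and complement genes changed in both directions, with more calls lower than higher. Saa3 (ENSMUSG00000040026.8, chr7:46711998-46715700), an acute phase protein of stromal cells, was at 51.9, 59.6, 44.8, 44.1 and 73.1 CPM in CAFs alone and 34.5, 36.3, 27.3, 27.4 and 38.4 CPM with 393P (-0.74 ± 0.13, adjusted p = 0.000286). All 5 values with 393P were below those of CAFs alone. Serpina3n, an acute phase protease inhibitor, changed by -0.86 ± 0.12. C3, the central complement component, went from 1206, 1037, 869, 860.1 and 1105 to 607, 651, 716, 603 and 686 CPM, without overlap (-0.64 ± 0.09, adjusted p = 1.83e-05), and C4b changed by -0.98 ± 0.18. Of 18 acute phase genes 11 were tested, 3 fell and 1, Steap4, rose, with a median of 0.07. Steap4 lost its call without any 1 of replicates 1 to 4 of CAFs alone or replicates 1, 2 and 5 of 393P. Of 16 complement genes 11 were tested, 4 fell and 1, the receptor gene C3ar1, rose (median -0.15). Il33, an alarmin cytokine, changed by -0.86 ± 0.17 and Ptgs2, the inducible cyclooxygenase, by -0.29 ± 0.07.

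Of 18 tested genes of the NF-kB list, 3 (Tnfaip3, Vcam1 and Cd44) rose, none fell and the median was -0.08. Vcam1 and Cd44 are neither NF-kB subunits nor feedback inhibitors, and Cd44 is also counted among the hyaluronan genes above. Tnfaip3, which encodes the NF-kB inhibitor A20, changed by 0.46 ± 0.09 (adjusted p = 0.000739) and the adhesion receptor gene Vcam1 went from 344 ± 13.1 to 461 ± 44.6 CPM (0.42 ± 0.06, adjusted p = 3.89e-05). None of 3 tested neutrophil-attracting chemokine genes passed the test, and Cxcl1 was at 11.5 ± 1.83 CPM in CAFs alone and 12.4 ± 1.38 CPM with 393P. Il6, the inflammatory cytokine gene, was at 12.5, 17.3, 12.4, 15.8 and 12.98 CPM and 16.5, 13.9, 13.6, 12.5 and 12.6 CPM in these groups, which overlapped (log2 -0.04 ± 0.11, adjusted p = 0.86996). Cxcl12, the chemokine ligand of CXCR4, was at 1855 ± 23.2 CPM and 1857 ± 92.4 CPM (log2 0.00 ± 0.05, adjusted p = 0.986). Zeb1, a transcription factor of mesenchymal cells, did not pass either (0.04 ± 0.06, adjusted p = 0.717).

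Interferon response genes are listed with a limit. Of 28, 18 were tested and 3 fell: Ifit1 (-1.59 ± 0.41), Ifi44 (-1.53 ± 0.48) and Ifi35 (-0.47 ± 0.16, adjusted p = 0.0454, a call lost in 13 of 21 alternatives). Ifit1 stood at 6.26, 5.62, 3.31, 21.5 and 5.74 CPM in CAFs alone and at 3.49, 2.398, 1.74, 1.06 and 5.22 CPM with 393P, and Ifi44 at 5.96, 5.21, 4.73, 39.6 and 4.74 CPM and 4.05, 3.68, 4.74, 2.74 and 5.65 CPM. Replicate 4 of CAFs alone was the high one for both. Without replicate 2 or 3 of CAFs alone 7 and 8 members fell, and without a count filter 13. Without replicate 4 none of the list passed: the log2 change of Ifit1 was -0.87 (adjusted p = 0.0626) and that of Ifi44 -0.29 (adjusted p = 0.369).

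Xenobiotic and stress genes that changed were mostly lower. Of 8 targets of the aryl hydrocarbon receptor 4 were tested and each of these fell. They include the receptor gene Ahr itself, with a log2 change of -0.25 ± 0.06, Cyp1b1 (-0.25 ± 0.06) and Nqo1 (-0.61 ± 0.10). Of 25 tested NRF2 and antioxidant genes 5 fell and none rose, with the glutathione transferase gene Gsta3 at -1.19 ± 0.22. In the integrated stress response list 8 of 26 tested genes fell and 1 rose (5 fell without 393P replicate 4), and Ddit3, the stress transcription factor CHOP, went from 45.9 ± 3.46 to 31.6 ± 2.96 CPM (-0.54 ± 0.10, adjusted p = 0.000367). Of 22 TGF-beta ligands and targets 6 rose and 5 fell. Among these, the ligand gene Tgfb3 changed by -0.45 ± 0.07.

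The CAFs facing 393P were next set against CAFs facing 344SQ in the same chambers, which asks whether the response depends on the line. With 393P, 191 genes (1.36%) were higher and 354 (2.52%) lower than with 344SQ. The number higher was 127 without 393P replicate 4, 113 without 393P replicate 5 and 367 without 344SQ replicate 4. In the last of these settings 392 were lower. Of the 2195 genes called against CAFs alone, 91 were higher and 123 lower with 393P than with 344SQ. The 2 lines share the CAFs-alone controls, so each line's values are given side by side.

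Inflammatory genes were among the largest differences. Saa3 was at 2239.8, 1818, 2026, 2417 and 2411 CPM with 344SQ, against 32.8 ± 5.13 CPM with 393P, a log2 difference (393P minus 344SQ) of -6.05 ± 0.13 (SE; adjusted p = 3.73e-21). Cxcl1 was at 133, 123, 142, 194 and 175 CPM with 344SQ, against 12.4 ± 1.38 CPM with 393P (-3.62 ± 0.12, adjusted p = 7.43e-17). Il6 was at 33.9 ± 1.77 CPM with 344SQ (-1.29 ± 0.11), and no value with 393P reached that range. C3 was at 1259.9 ± 144 CPM with 344SQ (-0.95 ± 0.09). Tnfaip3 differed by -0.97 ± 0.08 and Vcam1 by -0.66 ± 0.06, so that both genes, which rose with 393P, stood higher with 344SQ. Of 18 tested NF-kB genes 10 were lower with 393P, of 11 acute phase genes 8, and of 3 neutrophil chemokines 3, with none higher in those lists. Mt2, a metallothionein, differed by -1.79 ± 0.09 and Steap4, a metalloreductase, by -2.63 ± 0.15.

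Mmp13, Mmp3, Bnip3 and Tnc also differed between the lines. Mmp13 was at 41.9 ± 2.78 CPM with 344SQ and 10.7 ± 1.83 CPM with 393P (-1.97 ± 0.11, adjusted p = 2.78e-12), and Mmp3 at 75.4 ± 14.3 and 39.5 ± 4.28 CPM (-0.92 ± 0.11), while of the 14 protease and TIMP genes tested 4 were lower and 2 higher with 393P. Bnip3 differed by -0.96 ± 0.11, and 19 of 33 hypoxia and glycolysis genes were lower with 393P, none higher. Tnc was at 205, 222, 175, 150.2 and 216 CPM with 344SQ, overlapping the range of CAFs alone, while each value with 393P was lower (-0.97 ± 0.09, adjusted p = 5.19e-08). Of 25 matrix glycoprotein genes 4 were lower and 4 higher with 393P, and of the 10 fibrillar collagen genes 1 and 1. Hmga2 differed by -0.27 ± 0.06. Spp1 was at 114 ± 12.1 CPM with 344SQ and did not differ by the test (-0.24 ± 0.08, adjusted p = 0.113).

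Fewer genes were higher with 393P than with 344SQ. Nov was at 24.1, 17.9, 21.9, 19.9 and 18.8 CPM with 344SQ, below all values with 393P (1.06 ± 0.12, adjusted p = 7.13e-07). Mgp, an inhibitor of matrix calcification, was at 22.2 ± 4.36 CPM in CAFs alone, 33.5 ± 3.62 CPM with 393P and 13.6 ± 2.98 CPM with 344SQ (1.29 ± 0.14). Hey2 differed by 0.95 ± 0.24, Sema5a by 0.39 ± 0.07 and Scd1 by 0.29 ± 0.06.

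**Figure D4:**
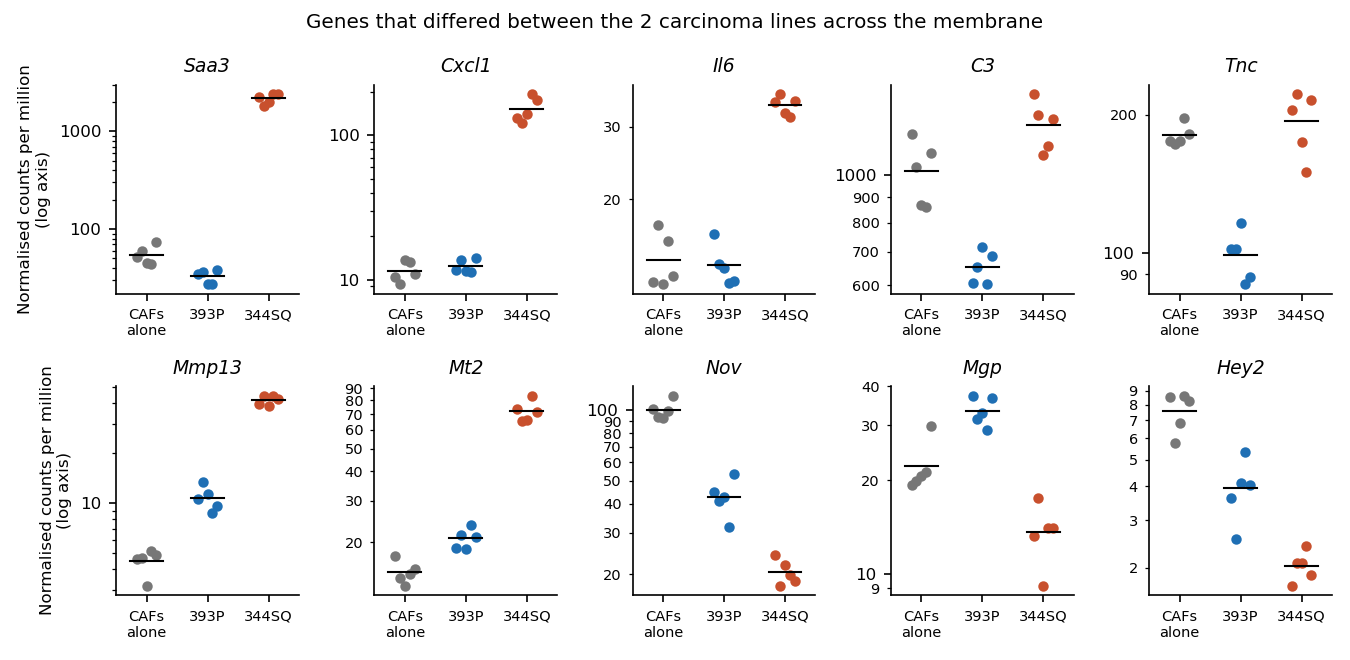
Normalised CPM on log axes for 10 genes that differed between 393P and 344SQ across the membrane; points are 5 biological replicates a group and bars are means. Saa3 lies between 27.3 and 38.4 with 393P and between 1818 and 2417 with 344SQ, while Nov, Mgp and Hey2 lie higher with 393P.

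Last, the 393P change across the membrane was set against the 393P change in multicellular aggregates, the format the labels give for the other co-cultures of the series. Each change was taken against CAFs alone of its own format, in 1 fit over 15193 genes. The change across the membrane was above that in aggregates for 556 genes (3.66%) and below it for 809 (5.32%). Among the genes called across the membrane, 2191 had a value in that fit, of which 183 were above and 286 below. Format cannot be told apart from the other features of the 2 experiments, such as library depth and culture geometry. In aggregates, the 20 epithelial markers summed to 9.12 to 13.2 CPM in CAFs alone and 23.5 to 97.8 CPM with 393P, while the endothelial markers summed to 38.7 to 59.8 and 324 to 525 CPM, the mural cell markers to 23.8 to 34.5 and 178 to 306 CPM, and the fibroblast markers to 5234 to 7801 and 8183 to 9782 CPM. Flt1 and Kdr were the 2 endothelial markers tested, and they did not move together. Their median log2 change in aggregates was -0.90, although Flt1 rose there. The Kdr difference between formats (membrane minus aggregate, 4.26, adjusted p = 0.493) did not pass the test. The part of these marker sums in the differences was not tested.

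Acta2 and several matrix genes fell across the membrane and rose in aggregates. Of 16 contractile genes the change across the membrane was below that in aggregates for 6 and above it for none. Over all genes these shares were 5.32% and 3.66%, and the median log2 change of the contractile list in aggregates was 0.02. Of 13 basement membrane and network collagen genes 8 were below and 2 above, and of 10 fibrillar ones 5 and none. Matrix glycoproteins gave 8 and 6 of 25, and laminin and basement membrane genes 4 and 2 of 12. Col1a1 was at 1337, 1042 and 877 CPM in the 3 aggregates of CAFs alone and at 2031, 1729 and 2501 CPM in those with 393P. It thus rose there (0.94 ± 0.12, adjusted p = 1.24e-07) and fell across the membrane, a log2 difference (membrane minus aggregate) of -1.37 ± 0.15 (adjusted p = 5.13e-09). Col6a1 differed by -2.22 ± 0.16, Col6a2 by -2.72 ± 0.17 and Col4a1 by -2.38 ± 0.16. Acta2 rose in aggregates (1.49 ± 0.37) and differed by -2.12 ± 0.40 (adjusted p = 0.000168). Tnc was at 256, 470.2 and 240.5 CPM in aggregates of CAFs alone and 2270.4, 1044 and 693 CPM in those with 393P (2.08 ± 0.25), and differed by -2.94 ± 0.30 (adjusted p = 7.67e-10). Wisp2 differed by -3.14 ± 0.36 and Nov by -2.27 ± 0.46. Flt1 rose in aggregates (3.22 ± 0.22) and differed by -3.69 ± 0.26. Ahr differed by -2.21 ± 0.14, with a rise in aggregates of 1.96 ± 0.12.

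For other genes the change across the membrane was the higher one. Pdgfra was at 837, 420.0 and 432 CPM in aggregates of CAFs alone and 160.1, 178 and 150.2 CPM in those with 393P, a fall (-1.8 ± 0.17) where the membrane gave a rise, and the difference was 2.55 ± 0.20 (adjusted p = 4.17e-13). Mmp3 fell in aggregates (-2.61 ± 0.64) and differed by 4.28 ± 0.64. Mmp13 differed by 3.00 ± 0.52, Bnip3 by 2.5 ± 0.36 and Vcam1 by 1.5 ± 0.18. Cxcl12 fell in aggregates (-2.65 ± 0.12) and did not pass the test across the membrane, with a difference of 2.65 ± 0.15 (adjusted p = 8.38e-18). C3 and Figf fell in both formats and fell further in aggregates, with differences of 3.02 ± 0.22 and 1.71 ± 0.26. Among the largest fitted differences in this direction were those of genes with no count in the 3 aggregates with 393P (Steap4, Clcn1, Rab13, Rspo1 and Slc1a6), for which no fold is given. Pkia was at 21.6, 12.2 and 15.9 CPM in aggregates of CAFs alone and 0, 1.01 and 0 CPM in those with 393P, and Emb at 15.4, 19.8 and 14.6 and 0, 0 and 1.26 CPM.

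Spp1 rose in both formats. It was at 105, 80.6 and 92.8 CPM in aggregates of CAFs alone and 552, 458 and 469.7 CPM in those with 393P (2.4 ± 0.16), and the difference between formats did not pass the test (-0.16 ± 0.20, adjusted p = 0.729). Hmga2 rose in both, more in aggregates (1.76 ± 0.13; difference -0.72 ± 0.16, adjusted p = 0.00127). Ccnd1 rose in both (0.93 ± 0.24 in aggregates), with a difference of -0.15 ± 0.27 that did not pass (adjusted p = 0.836).

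**Figure D5:**
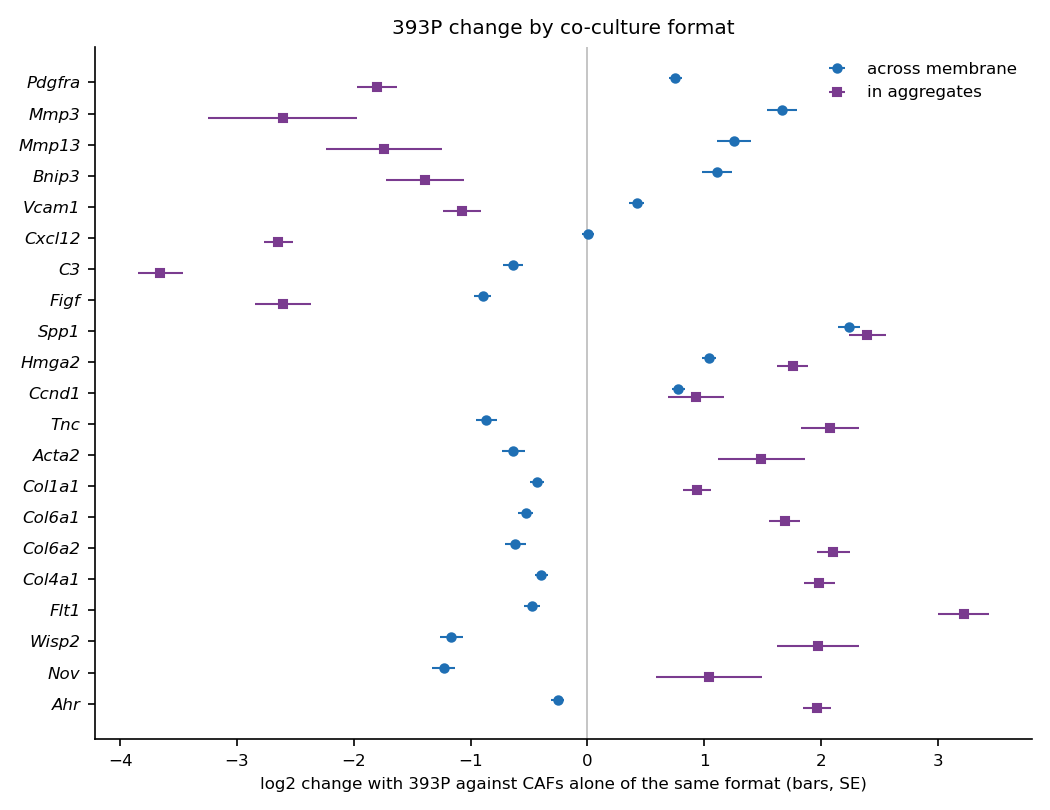
Log2 change with 393P against CAFs alone of the same format for 21 genes, across the membrane (blue circles) and in aggregates (purple squares); bars are SE, from 5 against 5 and 3 against 3 samples. Col1a1, Acta2 and Tnc lie left of 0 across the membrane and right of it in aggregates, Pdgfra and Mmp3 the reverse, and Spp1 lies right of 0 in both.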

How the data were processed

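Gene-level read counts were analysed for CAFs of the Boyden chamber and aggregate experiments. The deposited tables hold raw counts per gene and library; per the submitters' processing notes, STAR, HTSeq and mm10 were used, while which annotation release and strand setting applied is not given in the sources used here. Positions are from GENCODE M21 (GRCm38, which mm10 follows), matched by identifier for 48058 of 48440 genes. The 3 technical libraries of each replicate were summed; libraries of the same replicate did not resemble each other beyond their group (consensus correlation -0.0571). Genes were filtered with filterByExpr and tested with edgeR 4.0.16 (TMM scaling, quasi-likelihood test, Benjamini-Hochberg adjustment over all genes tested) in 1 fit of the 3 Boyden groups; the difference between formats was a contrast in a fit with the aggregates. Levels are TMM-normalised CPM; marker sums use total counts. The SE of a log2 change is its size divided by the root of the F statistic. DESeq2 1.42.0 was an alternative. The tests were checked on simulated counts.

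Depth was 4182944 to 8542262 counts per Boyden sum, and the biological coefficient of variation was 8.58%. Members and lists were chosen with earlier results of these data known. Named genes were taken from the 10 largest rises and falls without overlap whose higher group averaged 5 CPM or more, the 5 smallest p in each direction, up to 3 members per list, a fixed set (Zeb1, Acta2, Il6, Col1a1, Saa3, Cxcl12, Epcam, Cdh1) and up to 8 called genes a direction with the largest differences between lines and between formats, leaving out model names (Gm or Rik); not all are described, and further list members, among them genes shown for a promoter or spelling out a small count, were named after their values were seen. The table of the ZEB1 knockdown aggregates was not used here. Alternatives were other scalings and filters, the 2 groups alone, a replicate block, single technical libraries, thinned counts and left-out replicates.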

Additional observations from a re-analysis of the deposited data

Results flagged for a closer look

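In 13 of 232 gene and group pairs, over 116 of the genes reported here, 1 of 5 replicates stood apart from the other 4. Chance gives about 1 in 20. In CAFs alone, Ifit1 was at 21.5 CPM and Ifi44 at 39.6 CPM in replicate 4, which was also highest for Cyr61 (751 CPM) and Fos (84.0 CPM). The other replicates of that group lay at 3.31 to 6.26 CPM for Ifit1 and 4.73 to 5.96 CPM for Ifi44. Mmp13 was low in replicate 3 of CAFs alone (3.19 CPM), Rpl7 high in replicate 1 (522 CPM), Fmod in replicate 2 (49.6 CPM) and Serpinb1a (26.5 CPM), Mgp (29.8 CPM) and Steap4 (4.87 CPM) in replicate 5. With 393P, replicate 5 was high for Bub1b (33.8 CPM) and Scd2 (598 CPM), and replicate 2 for Sema3a (134 CPM).

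The response to 393P differed from that to 344SQ by the test of the difference itself (log2, 393P minus 344SQ) for 18 reported genes. Lower with 393P were Saa3 (-6.05), Cxcl1 (-3.62), Steap4 (-2.63), Mmp13 (-1.97), Mt2 (-1.79), Il6 (-1.29), Tnfaip3 (-0.97), Tnc (-0.97), Bnip3 (-0.96), C3 (-0.95), Mmp3 (-0.92), Vcam1 (-0.66) and Hmga2 (-0.27). Higher with 393P were Mgp (1.29), Nov (1.06), Hey2 (0.95), Sema5a (0.39) and Scd1 (0.29).

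The 393P change differed between formats by its own test (log2, membrane minus aggregate) for 19 reported genes. The change across the membrane was the higher one for Mmp3 (4.28), C3 (3.02), Mmp13 (3.00), Cxcl12 (2.65), Pdgfra (2.55), Bnip3 (2.5), Figf (1.71) and Vcam1 (1.5). It was the lower one for Flt1 (-3.69), Wisp2 (-3.14), Tnc (-2.94), Col6a2 (-2.72), Col4a1 (-2.38), Nov (-2.27), Col6a1 (-2.22), Ahr (-2.21), Acta2 (-2.12), Col1a1 (-1.37) and Hmga2 (-0.72). All 19 kept their direction and passed the test in each of 19 alternatives.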

How the results depend on the processing

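Against CAFs alone, single technical libraries gave fewer calls: 336 higher and 273 lower with the first, and, added after seeing the data, 75 and 124 with the second and 570 and 563 with the third. A log2 size of at least 1 left 40 higher and 44 lower. Leaving out 1 replicate gave 724 to 1067 higher and 843 to 1222 lower. Deviations of same-numbered replicates of the 2 groups correlated at -0.10 to 0.04 for replicates 1, 3, 4 and 5, and at 0.26 for replicate 2. With a replicate block 880 were higher and 916 lower. Removing the 2 technical libraries richest in epithelial markers, an alternative added after seeing the data, gave 1441 and 1542. Between the lines, 191 genes higher with 393P became 343 without a count filter, 12 with the first technical library, 127 without 393P replicate 4, 113 without 393P replicate 5 and 367 without 344SQ replicate 4; the 354 lower became 61 with the first technical library and 250 to 397 without 1 replicate, and with a replicate block the counts were 140 and 286. Between formats, the counts stayed within 1.5 times in all alternatives run. The next counts cover 109 genes called against CAFs alone and leave out some called genes named above, such as Jag1 and Pkia. Of the 109, 69 kept direction and call in every alternative. Another 29 lost the call only with the first technical library, where Cenpa fell to 0.15 and Etv4 to 0.31. The other 11 were Bmp4 (6 of 19 alternatives), Csf1r (2 of 21), Esrp2 (7), Fos (4), Id1 (10), Ifi35 (13), Ifi44 (6 of 20), Ifit1 (1 of 20), Mmp14 (3), Nr4a1 (4) and Steap4 (11), and with the replicate block the Ifi44 log2 change had an adjusted p of 0.0832. Uncalled genes changed sign: Cdh1 (-0.74 with the first technical library, -0.41 without the 2 libraries rich in epithelial markers; it passed without a count filter, at 1.12), the Zeb1 log2 change (-0.000684 to 0.0600 without 1 replicate), the Il6 log2 change (0.0824 with the first technical library, 0.0246 without technical library 2 of 393P replicate 1, 0.0372 without both libraries, -0.11 to 0.0422 without 1 replicate) and the Cxcl12 log2 change (-0.00186 without a count filter, -0.000624 with the first technical library, -0.00572 with thinned counts, -0.029 to 0.0118 without 1 replicate). Pdpn, called lower but not among the 109, lost its call in 8 of 21 alternatives. It changed sign in 1 more, the first technical library (0.0028). The cause of these moves was not tested.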

Other observations

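A few gene groups belong to no comparison above. Of 10 tested cytokine genes, 1 rose and 1 fell: Tslp, an epithelial-type alarmin, went from 1.38 ± 0.452 to 3.05 ± 1.18 CPM (1.14 ± 0.30, adjusted p = 0.00963), while Il33 fell as given above. Of 12 tested BMP signalling genes 3 rose, Id3 (0.37 ± 0.08), Id1 (0.31 ± 0.10, a call lost in 10 of 21 alternatives) and the BMP antagonist gene Grem1 (0.30 ± 0.07), and 1, the ligand gene Bmp4 (-1.14 ± 0.36), fell, though its call was lost without 393P replicate 1, 3 or 4 and without CAFs alone replicate 2, 4 or 5. Of 22 tested p53 targets 5 fell and none rose (2 fell without CAFs alone replicate 4 or 393P replicate 4), and of 19 tested genes of the unfolded protein response 5 fell and none rose, with a median log2 change of -0.08 (2 fell without CAFs alone replicate 5 or 393P replicate 4). None of the 13 mitochondrially encoded respiratory genes passed the test, although 12 had a log2 change above 0.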
